A study of Mus musculus with 9 samples.

Results

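The genes described here are the ligands, receptors and binding proteins of the fibroblast growth factor (FGF), transforming growth factor beta (TGF-beta), activin, bone morphogenetic protein (BMP) and insulin-like growth factor (IGF) families. They were chosen by gene symbol alone, as the symbols of the form Fgf, Fgfr, Bmp and Gdf with a number, Bmpr, Tgfb and Tgfbr with a number, Acvr, the inhibin and activin subunits, and Igf1, Igf2 and Igfbp. The rule found 85 of the 24059 genes in the count table, in 13 roles. Of the 85, 53 had enough reads to be tested, 32 did not, and 5 of those 32 had no count in any library.

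The series holds messenger RNA of 3 segments of the epididymis, taken from wild type mice of the strain C57BL/6J at 9 months of age. The caput lies next to the testis, the corpus is the middle segment, and the cauda stores mature sperm. Each segment has 3 libraries from frozen whole tissue, all of the same strain, genotype and age, with no treatment named. The labels do not say whether the 3 libraries of a segment come from separate mice, or which libraries share a mouse, so p-values speak only for the spread among these libraries, and that spread may be technical.

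These families signal from the cell surface. FGFs bind receptor tyrosine kinases together with heparan sulphate and act largely through the ERK pathway, where Etv1, Etv4 and Etv5 are common targets. TGF-beta, activin and BMP ligands bring together a type I and a type II receptor kinase that phosphorylate SMAD proteins. IGF1 and IGF2 act through the IGF1 receptor, while IGF binding proteins hold them in the extracellular fluid. In the rat, FGFs carried in testicular fluid are known as luminal signals to the initial segment of the epididymis, and in the mouse the loss of BMP ligands is known to damage the adult duct.

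Libraries held 2600061 to 6076479 counts, and levels are given as CPM (counts divided by library size) after scaling of library sizes by the trimmed mean of M-values (TMM), as mean ± SD of 3 libraries. A single count was worth 0.155 to 0.375 CPM. The segments carried their defining transcripts: Gpx5, a glutathione peroxidase of the caput, averaged 48958 ± 2571 CPM in caput against 23.2 ± 4.76 in corpus and 306 ± 44.8 in cauda, and Crisp1, a sperm-binding secreted protein, averaged 924 ± 164, 26212 ± 3181 and 42298 ± 3959 CPM in the same order. The corpus libraries differed in their stromal markers. The 11 fibroblast markers summed to 1180 CPM in corpus replicate 2, against 605 and 438 CPM in corpus replicates 1 and 3. On the 11 smooth muscle markers corpus replicate 3 lay apart, at 320 CPM against 845 and 1032 CPM in corpus replicates 1 and 2. Corpus replicate 2 was the highest corpus library for 25 of the 53 tested members (47.2%), against 32.2% of all tested genes. It exceeded both other corpus libraries by more than 2-fold for 5 members (9.43%), against 2.05% of all tested genes. Those 5 were Inhbb, Bmp6, Igf1, Igfbp5 and Gdf10, and results of tested members that gained or lost a call without that library are given both ways. In bulk tissue, fewer cells of a type and less RNA per cell cannot be told apart.

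A gene was called changed at a Benjamini-Hochberg adjusted p below 0.05 over all 14168 tested genes in edgeR's quasi-likelihood test, and every adjusted p below is from that test. Of the 53 tested members, 37 passed the F test over the 3 segments (69.8%), close to the share of all tested genes that passed it, 69%. Among the 37, the mean was highest in caput for 17, in cauda for 14 and in corpus for 6. As shares of the 53 these are 32.1%, 26.4% and 11.3%, against 27.4%, 18.5% and 23.1% of all tested genes. From caput to corpus 7 members were higher and 19 lower (13.2% and 35.8%), against 29.5% and 28.2% of all tested genes. From corpus to cauda 14 were higher and 6 lower (26.4% and 11.3%), against 18.8% and 20.4%. Without corpus replicate 2, 53 members were again tested, Fgf15 now among them, and 24 were higher in cauda than in corpus (45.3%, against 18.8% of the 14217 genes tested in that fit). In the same fit 25 were lower in corpus than in caput (47.2%, against 27.2% of genes). Between the ends of the duct 17 were higher in cauda and 18 lower (32.1% and 34%), against 27.5% and 27.2%. The median log2 change of the tested members was -0.20 from caput to corpus and 0.22 from corpus to cauda, where the medians of all tested genes were 0.0048 and -0.0064. Each contrast shares its libraries with the other two, so the 3 sets of values are not independent.

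**Figure D1:**
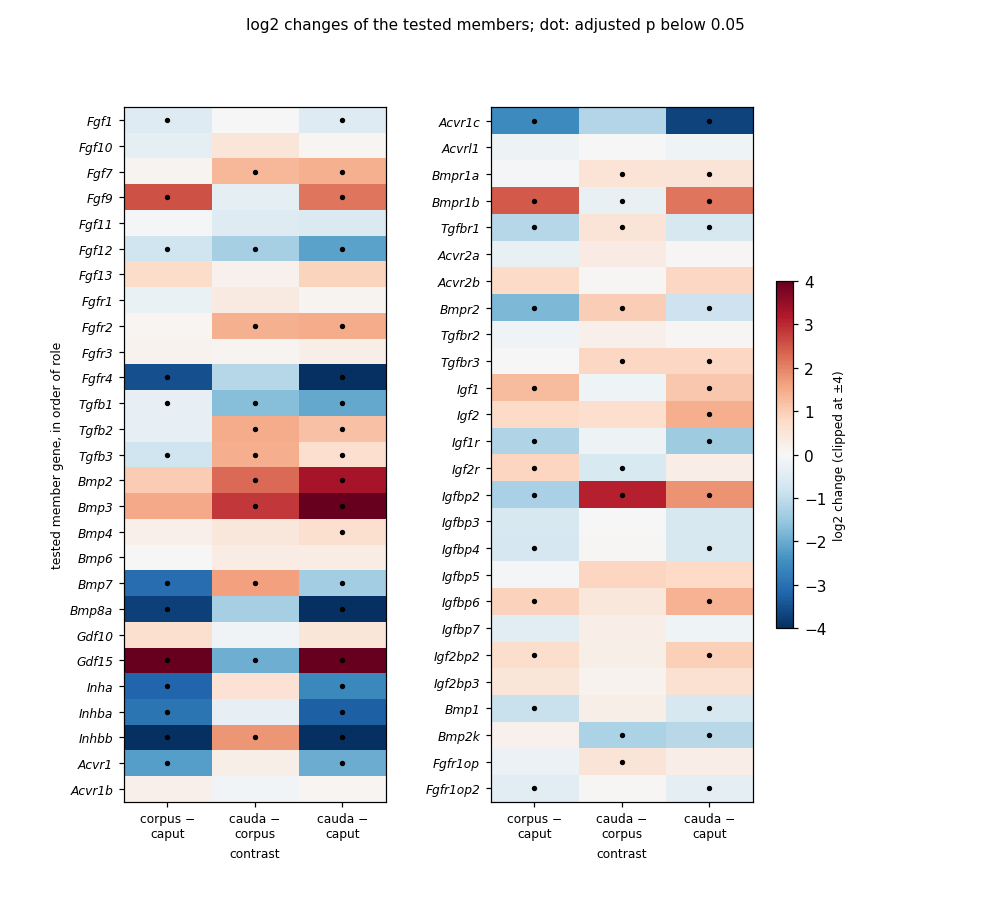
Log2 change of each of the 53 tested members (rows, in order of role, in 2 panels) in the 3 contrasts between segments (columns), coloured from lower (blue) to higher (red) in the first-named segment and clipped at ±4, with a dot where the edgeR adjusted p was below 0.05. Dots mark 7 higher and 19 lower members from caput to corpus, with Inhbb lowest and Gdf15 highest.

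The 4 members at the outer ends of the called changes were Inhbb and Gdf15 (lowest and highest from caput to corpus), Igfbp2 (highest from corpus to cauda) and Bmp8a (lowest from caput to cauda). Their promoter windows are shown because these genes carry the widest changes in both directions. Each window runs from 250 bases before to 50 after the RefSeq start on GRCm38.p6, 5′ to 3′ on the gene's strand, and 64 of the 85 members had at least 1 window. Capitals mark matches on either strand to 6 searched motifs. Of all 32851 windows, 13.6% hold the TATA box (letters TATAAA), 35.7% the GC box (letters GGGCGG), 1.79% the cyclic AMP response element (letters TGACGTCA), 7.81% the AP-1 site (letters TGANTCA), 19% the androgen receptor half-site (letters AGAACA) and 14.9% the ETS core (letters CCGGAA). None of the 6 motifs contains another.
Inhbb (chr1:119422199-119422498, minus strand): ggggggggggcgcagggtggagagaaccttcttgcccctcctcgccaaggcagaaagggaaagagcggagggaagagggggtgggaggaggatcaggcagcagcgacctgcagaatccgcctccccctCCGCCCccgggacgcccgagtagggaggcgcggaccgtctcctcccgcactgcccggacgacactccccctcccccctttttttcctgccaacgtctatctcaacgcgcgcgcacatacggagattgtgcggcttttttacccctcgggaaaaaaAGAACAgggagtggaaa
Bmp8a (chr4:123343203-123343502, minus strand): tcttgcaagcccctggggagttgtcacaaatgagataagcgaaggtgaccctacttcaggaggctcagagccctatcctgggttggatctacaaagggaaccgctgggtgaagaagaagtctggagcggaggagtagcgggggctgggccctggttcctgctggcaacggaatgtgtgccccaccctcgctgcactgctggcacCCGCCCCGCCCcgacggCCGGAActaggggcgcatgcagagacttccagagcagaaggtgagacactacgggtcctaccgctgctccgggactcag
Gdf15 (chr8:70632407-70632706, minus strand): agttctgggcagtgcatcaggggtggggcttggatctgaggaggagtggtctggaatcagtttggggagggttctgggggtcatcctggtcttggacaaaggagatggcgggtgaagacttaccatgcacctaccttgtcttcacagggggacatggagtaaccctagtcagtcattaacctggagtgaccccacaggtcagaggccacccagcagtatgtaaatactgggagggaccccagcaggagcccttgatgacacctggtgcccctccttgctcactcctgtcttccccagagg
Igfbp2 (chr1:72824230-72824529, plus strand): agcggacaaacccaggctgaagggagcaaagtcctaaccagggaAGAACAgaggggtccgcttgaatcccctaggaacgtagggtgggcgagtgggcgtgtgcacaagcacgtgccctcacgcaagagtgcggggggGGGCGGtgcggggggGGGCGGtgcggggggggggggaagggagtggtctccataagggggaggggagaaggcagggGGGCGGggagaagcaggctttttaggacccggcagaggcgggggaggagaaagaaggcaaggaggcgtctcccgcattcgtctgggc
The Inhbb window held a GC box and an androgen receptor half-site, the Bmp8a window overlapping GC boxes and an ETS core, and the Igfbp2 window 3 GC boxes and an androgen receptor half-site. The Gdf15 window held none of the 6. RefSeq has a second window for Gdf15, which also held none, and for Igfbp2, which held an AP-1 site, and only the first is shown. A match or its absence says nothing of binding.

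The genes of activin and inhibin, dimers that share beta subunits and were first known as gonadal regulators of follicle-stimulating hormone, had their highest levels in the caput. All 3 tested subunits of the 5 were higher in caput than in corpus and in cauda, where 28.2% and 27.2% of all tested genes were lower than in caput. Summed over the 5 subunits, the level was 179 to 202 CPM in the caput libraries, 3.75 to 8.68 in corpus and 10.6 to 13.2 in cauda. Inhbb, the activin beta B subunit (chr1:119415465-119422248 in mm10, minus strand), stood at 154, 139 and 170 CPM in the caput libraries, 0.374, 3.41 and 0.753 in corpus, and 6.83, 6 and 6.13 in cauda. The 3 segments did not overlap, and its level per unit length (19.8 mean RPKM in caput, the authors' reads per kilobase scaled for library size) was the highest caput value of any ligand or subunit of the superfamily. It fell 82.3-fold from caput to corpus (log2 change -6.36, SE 0.26, adjusted p = 1.92e-10) and was 3.39-fold higher in cauda than in corpus (log2 1.76, SE 0.39, adjusted p = 0.00282). Corpus replicate 2, with 22 of the 27 corpus counts, weighs on both values: without it the log2 changes were -7.88 and 3.29.

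Inha, the alpha subunit that makes inhibin, was at 28.7, 31.8 and 24 CPM in caput, 1.5, 3.88 and 3.2 in corpus, and 5.64, 3.6 and 4.64 in cauda. Every caput library lay above every other, while corpus and cauda overlapped (log2 0.57, SE 0.30, adjusted p = 0.146). The fall from caput to corpus was 8.94-fold (adjusted p = 1.87e-07). Inhba, the beta A subunit, also lay highest in caput in every library, with 8.1, 8.11 and 8.18 CPM in caput, 1.87, 1.4 and 0.188 in corpus and 0.683, 1 and 0.828 in cauda. Its caput mean exceeded that of corpus 7.58-fold (adjusted p = 5.63e-05) and that of cauda 9.51-fold (adjusted p = 2.39e-05). Inhbc had no count, and Inhbe had 3 counts in all.

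Among the activin receptors, the type I receptor genes Acvr1 and Acvr1c were also highest in caput, and the others did not pass the test. Acvr1, a type I receptor that binds activins and serves BMPs (known as ALK2), was at 50.3, 40.9 and 31.7 CPM in caput, 6.74, 11 and 7.53 in corpus and 9.91, 10.6 and 10.6 in cauda. It fell 4.64-fold from caput to corpus (log2 -2.21, SE 0.21, adjusted p = 7.94e-07), and its corpus and cauda libraries overlapped. Acvr1c (ALK7), a receptor of activin B and Nodal, was low throughout, at 3.43 ± 0.292 CPM in caput against 0.728 ± 0.667 in corpus and 0.236 ± 0.0932 in cauda. Its log2 change from caput to corpus was -2.54, and -3.23 without corpus replicate 1 (adjusted p = 0.000755 and 0.000198). Acvr1b (ALK4), the main activin type I receptor, had 47.4 ± 2.86, 53.8 ± 2.15 and 49.7 ± 2.41 CPM (F test, adjusted p = 0.164). The type II receptor gene Acvr2a had 44.9 ± 2.66, 38 ± 8.63 and 46.5 ± 0.247 CPM (adjusted p = 0.0699), and Acvr2b 1.04 to 1.96 CPM (adjusted p = 0.399). Without corpus replicate 1, the log2 change of Acvr2a from caput to corpus went from -0.28 (adjusted p = 0.0858) to -0.44 (adjusted p = 0.00349). Its change from corpus to cauda (log2 0.33, adjusted p = 0.0539) was 0.49 without that library, and was then called. DESeq2 size factors, upper quartile scaling, no low-count filter and a replicate block also called the second change. Acvrl1 (ALK1), an endothelial type I receptor, had segment means of 26.7 to 30.7 CPM (adjusted p = 0.646).

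**Figure D2:**
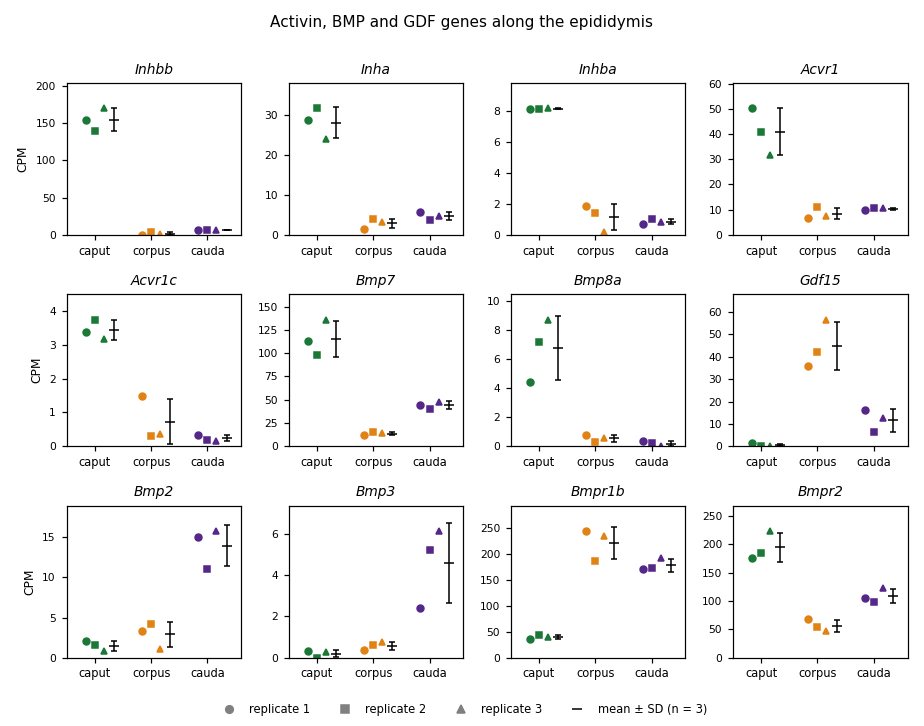
CPM of 12 activin, BMP and GDF members (y axis, linear from 0, own scale per panel) in caput, corpus and cauda, with 1 symbol per library and a bar for the mean ± SD of 3. Inhbb, Inha, Inhba, Acvr1, Bmp7 and Bmp8a lie highest in caput, Gdf15 and Bmpr1b have their highest mean in corpus, and Bmp2 and Bmp3 lie highest in cauda.

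The BMP and GDF ligands did not follow a single order along the duct: of 20 genes 8 were tested and 5 passed the F test (62.5%, against 69% of all tested genes). Of these, 2 were highest in caput, 1 in corpus and 2 in cauda (25%, 12.5% and 25% of the 8, against 27.4%, 23.1% and 18.5%). Bmp7, a BMP of developing and adult epithelia (chr2:172868012-172940321, minus strand), had the highest caput level of them per unit length (17.2 mean RPKM). It was at 113, 97.6 and 136 CPM in caput, 11.6, 15 and 14.5 in corpus and 44.4, 40 and 48.1 in cauda. Caput, cauda and corpus formed 3 separate levels in that order, with an 8.23-fold fall into corpus (log2 -3.04, SE 0.14, adjusted p = 7.86e-10) and a 3.14-fold higher level in cauda than in corpus (adjusted p = 1.42e-06). Bmp8a, whose loss is known to harm the adult mouse epididymis, was at 4.39, 7.17 and 8.71 CPM in caput, 0.749, 0.31 and 0.565 in corpus and 0.342, 0.2 and 0 in cauda. It fell 13.3-fold from caput to corpus (adjusted p = 2.18e-05). The cauda libraries together had 3 counts of Bmp8a against 69 in caput, a ratio of 39 with a 95% interval of 12.8 to 194 that covers counting error only. The fitted log2 change was -5.07 (adjusted p = 4.61e-06), and -5.84 without cauda replicate 1. Of the 36-base windows of Bmp8a, 10.5% also occur in other genes. The gene sharing the most of them is its neighbour and near copy Bmp8b, which had at most 0.584 mean CPM in any segment.

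Gdf15, a stress-induced member of the superfamily that signals in the brainstem through GFRAL (chr8:70629393-70632456, minus strand), ran the other way. It was at 36, 42 and 56.7 CPM in corpus and 16.4, 6.2 and 12.4 in cauda, but at 1.35, 0 and 0 in caput. The 3 caput libraries held 4, 0 and 0 counts against 96, 271 and 301 in corpus, so the fitted 106-fold rise (log2 6.72, SE 0.58, adjusted p = 3.91e-07) rests on 4 caput counts from 1 library. The fitted log2 change was 10.77 without caput replicate 1 and 6.07 without caput replicate 3. For the change from caput to cauda (log2 4.79, adjusted p = 7.36e-05) these values were 8.83 and 4.13. From corpus to cauda Gdf15 fell 3.83-fold (log2 -1.94, SE 0.30, adjusted p = 0.00017), and no library of one segment overlapped another's.

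Bmp2 and Bmp3 were highest in cauda. Bmp2, a potent inducer of SMAD1/5 signalling, was at 2.03, 1.56 and 0.792 CPM in caput, 3.37, 4.19 and 1.13 in corpus and 15, 11 and 15.7 in cauda. It was 4.8-fold higher in cauda than in corpus (log2 2.26, SE 0.34, adjusted p = 0.000155) and 9.73-fold higher than in caput (adjusted p = 2e-05), with caput and corpus overlapping. Bmp3, known as an antagonist of other BMPs in bone, was at 4.58 ± 1.95 CPM in cauda and at or below 0.583 mean CPM elsewhere. It was 7.09-fold higher in cauda than in corpus (adjusted p = 0.000495), and its 77 cauda counts stood against 2 in caput, a ratio of 22.7 with a 95% counting interval of 6.08 to 191. Bmp4 had 10.4 ± 1.15, 11.7 ± 4.46 and 16.3 ± 2.95 CPM and did not pass the F test (adjusted p = 0.0797). Its cauda against caput call (log2 0.65, adjusted p = 0.048) ended without any 1 of the 3 caput libraries, corpus replicate 1 or cauda replicate 1 or 2 (adjusted p up to 0.147), and with DESeq2 (0.0744). Its change from corpus to cauda (log2 0.45, adjusted p = 0.163) was 0.87 without corpus replicate 2 (adjusted p = 0.00784). Bmp6 and Gdf10 did not pass the F test either (adjusted p = 0.733 and 0.447), and their highest library was corpus replicate 2. Without that library the log2 change of Gdf10 from caput to corpus went from 0.63 to -0.30 (adjusted p = 0.517) and from corpus to cauda from -0.15 to 0.79 (adjusted p = 0.0852). The same changes of Bmp6 went from 0.0059 to -0.80 (adjusted p = 0.155) and from 0.30 to 1.12 (adjusted p = 0.0511), so none of the 4 was called with or without that library. Without corpus replicate 3, however, Gdf10 was called higher in corpus than in caput (log2 1.06, adjusted p = 0.018).

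Each of the 3 BMP receptor genes had its own order of segments. Bmpr1b, a type I receptor (ALK6) with a narrower tissue range than Bmpr1a (chr3:141837136-142169425, minus strand), was at 35.4, 43.4 and 40.6 CPM in caput, 243, 186 and 234 in corpus and 170, 172 and 192 in cauda. It was 5.51-fold higher in corpus than in caput (log2 2.46, SE 0.12, adjusted p = 1.06e-09) and 4.46-fold higher in cauda (adjusted p = 4.65e-09), with no overlap with caput. Its slight fall from corpus to cauda (log2 -0.31, adjusted p = 0.0303) lost its call without corpus replicate 1 or 3 (adjusted p = 0.115 and 0.0918) and without cauda replicate 1 or 2 (0.102 and 0.0928). Upper quartile scaling (0.0541) and DESeq2 (0.0621) also ended it. Bmpr1a (ALK3), the widely expressed type I receptor, was at 139 ± 11.2, 137 ± 15.6 and 198 ± 22.9 CPM and rose 1.46-fold from corpus to cauda (adjusted p = 0.00108), with a log2 change of -0.03 from caput to corpus (adjusted p = 0.822). Bmpr2, the type II receptor, was at 176, 186 and 224 CPM in caput, 68.2, 54.4 and 47.3 in corpus and 106, 99.1 and 124 in cauda. It was 3.51-fold lower in corpus than in caput (log2 -1.81, SE 0.14, adjusted p = 9.02e-08) and 1.97-fold higher in cauda than in corpus (adjusted p = 7.05e-05), the same order of segments as Bmp7.

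The 3 TGF-beta ligands split between the ends of the duct. Tgfb1, the isoform best known for immune tolerance and fibrosis (chr7:25687002-25705077, plus strand), was at 63.1, 71.7 and 84.4 CPM in caput, 49.8, 64 and 58.2 in corpus and 20.7, 17 and 15.6 in cauda. The cauda libraries lay below all others, 3.26-fold below corpus (log2 -1.71, SE 0.14, adjusted p = 6.83e-07) and 4.13-fold below caput (adjusted p = 5e-08). Its smaller fall from caput to corpus (log2 -0.34, adjusted p = 0.0383) had overlapping libraries and lost its call in 6 of 14 alternatives. These were DESeq2 (0.0617) and the fits without caput replicate 2 or 3 (0.0728 and 0.197), corpus replicate 1 or 3 (0.136 and 0.0659) or cauda replicate 2 (0.0525). Tgfb2, an isoform of epithelial and mesenchymal development, was at 15.9, 20.3 and 19.3 CPM in caput, 13.1, 18.5 and 11.9 in corpus and 35.4, 39.6 and 49.7 in cauda. It moved opposite to Tgfb1, with a 2.81-fold rise from corpus to cauda (log2 1.49, SE 0.18, adjusted p = 2.05e-05). Its change from caput to corpus (log2 -0.33, adjusted p = 0.19) was -0.58 without corpus replicate 2 (adjusted p = 0.031). Tgfb3, an isoform needed for palate and lung development, had 15.8 ± 2.49, 8.92 ± 2.88 and 24.9 ± 5.42 CPM and rose 2.75-fold from corpus to cauda (adjusted p = 0.000246). Its other calls were weaker: corpus below caput (log2 -0.79, adjusted p = 0.0193) was lost without caput replicate 1 or 2 or corpus replicate 3 (0.0664, 0.0606 and 0.0771). Cauda above caput (log2 0.68, adjusted p = 0.0229) was lost without caput replicate 3 or cauda replicate 1 or 3 (0.103, 0.055 and 0.0841).

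Of the TGF-beta receptors, the type I receptor gene Tgfbr1 (ALK5) was at 152 ± 12.6 CPM in caput against 69 ± 5.47 in corpus and 97.7 ± 6.33 in cauda, with no overlap between segments. It fell 2.22-fold from caput to corpus (adjusted p = 1.57e-07) and rose 1.43-fold from corpus to cauda (adjusted p = 0.000527). Tgfbr2, its type II partner, had 56.2 ± 2.91, 51 ± 8.68 and 58.2 ± 2.42 CPM and did not pass the F test (adjusted p = 0.312). Without corpus replicate 2 its log2 changes were -0.29 from caput to corpus (adjusted p = 0.0444) and 0.35 from corpus to cauda (adjusted p = 0.023). Tgfbr3 (betaglycan), a co-receptor that presents TGF-beta2 and inhibin, was at 38.5 ± 5.35, 39.6 ± 8.74 and 68.1 ± 11.6 CPM. It was 1.76-fold higher in cauda than in corpus (adjusted p = 0.00128), as Tgfb2 was.

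**Figure D3:**
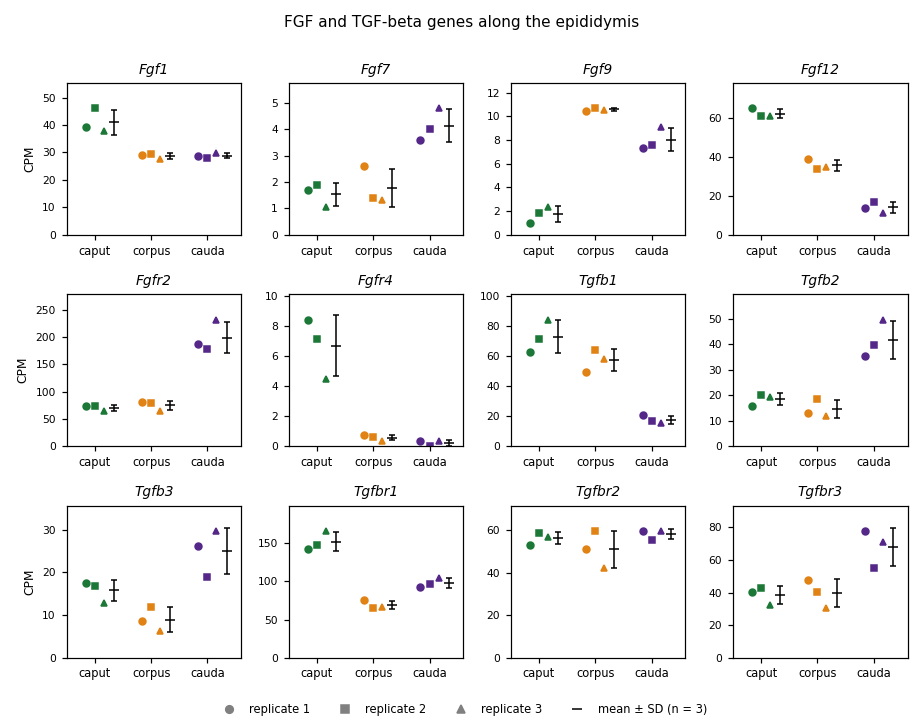
CPM of 12 FGF and TGF-beta members (y axis, linear from 0, own scale per panel) in the 3 segments, with 1 symbol per library and the mean ± SD of 3. Tgfb1 and Fgf12 are lowest in cauda, Tgfb2 and Fgfr2 are highest there, Fgf9 is low in caput, and the Tgfbr2 libraries of the 3 segments overlap.

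Few FGF ligand genes had enough reads to be tested: of 18 ligand genes, 15 had a count, 4 were tested and 3 had no count at all. Fgf1, an FGF that binds all receptors, had the highest mean RPKM of them over all libraries (4.42). It was at 41 ± 4.51, 28.7 ± 1.02 and 28.8 ± 1 CPM along the duct. It was 1.43-fold higher in caput than in corpus (adjusted p = 0.00113). Fgf9, an FGF of the reproductive tract that is required for testis formation (chr14:58070547-58112720, plus strand), was at 1.01, 1.87 and 2.37 CPM in caput, 10.5, 10.7 and 10.5 in corpus and 7.35, 7.61 and 9.11 in cauda. Every corpus library lay above every cauda library and all of these above caput. The rise from caput to corpus was 5.81-fold (log2 2.54, SE 0.28, adjusted p = 4.08e-06), and the step from corpus to cauda did not pass (log2 -0.40, adjusted p = 0.137). Fgf7 (keratinocyte growth factor), made by stroma and acting on epithelial FGFR2, was at 1.54 ± 0.428, 1.78 ± 0.731 and 4.13 ± 0.619 CPM and was 2.52-fold higher in cauda than in corpus (adjusted p = 0.00667). Fgf10, a second ligand of that receptor, had 2.55 to 3.73 mean CPM and did not pass (F test, adjusted p = 0.4).

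Among the FGF receptors, Fgfr2 was highest in cauda and Fgfr4 in caput. Fgfr2 was at 74.3, 73.6 and 64.1 CPM in caput, 80.9, 78.5 and 65.2 in corpus and 187, 179 and 232 in cauda. Caput and corpus overlapped, and the cauda level was 2.68-fold that of corpus (log2 1.42, SE 0.11, adjusted p = 5.21e-07). Fgfr4, the receptor best known in liver for FGF15 and bile acids, was at 8.44, 7.17 and 4.49 CPM in caput, 0.749, 0.62 and 0.377 in corpus and 0.342, 0 and 0.331 in cauda. It fell 11.4-fold from caput to corpus (log2 -3.51, SE 0.47, adjusted p = 2.7e-05) and had 4 counts in all of cauda. Fgfr1 and Fgfr3 had segment means of 46.3 to 59.6 and 46.4 to 55.1 CPM and did not pass the F test (adjusted p = 0.0963 and 0.184). Without corpus replicate 2, Fgfr1 fell by 0.45 on the log2 scale from caput to corpus (adjusted p = 0.0212) and rose by 0.56 from corpus to cauda (adjusted p = 0.00687). For Fgfr3, 13.7% of its windows also occur in other genes, most often in an overlapping antisense gene. No source used here gives the strand setting of the counting.

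The FGF homologous factors are relatives that stay inside the cell and bind voltage-gated sodium channels. Fgf12 (chr16:28160098-28753068, minus strand) was at 65.1, 60.8 and 61 CPM in caput, 38.9, 33.8 and 34.7 in corpus and 13.8, 17 and 11.4 in cauda. It stepped down at each segment with no overlap, by 1.75-fold into corpus (adjusted p = 6.58e-05) and by 2.53-fold into cauda (log2 -1.34, SE 0.13, adjusted p = 3.67e-06). Fgf11 and Fgf13 had segment means of 2.08 to 6.07 CPM and did not pass (F test, adjusted p = 0.231 and 0.133).

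Per unit length, the IGF binding protein gene Igfbp7 had the highest level of all members, with a mean of 74.4 RPKM over the 9 libraries. Igfbp7, a low-affinity relative of the other binding proteins, had 196 ± 25.5, 144 ± 60 and 174 ± 14.9 CPM and did not pass the F test (adjusted p = 0.23). Its log2 changes of -0.44 from caput to corpus and 0.28 from corpus to cauda (adjusted p = 0.118 and 0.364) became -0.81 and 0.66 without corpus replicate 2, and both then passed (adjusted p = 0.00199 and 0.0115). Both IGF receptors and both IGF ligands passed the F test, as 69% of all tested genes did. Igf1r, the signalling receptor (chr7:67952827-68233668, plus strand), was at 425, 439 and 675 CPM in caput, 216, 201 and 249 in corpus and 187, 174 and 214 in cauda. Caput lay above the other segments in every library, 2.31-fold above corpus (log2 -1.21, SE 0.16, adjusted p = 2.03e-05) and 2.68-fold above cauda (adjusted p = 4.99e-06). Igf2r, which removes IGF2 and carries lysosomal enzymes, was at 69.5, 68 and 72 CPM in caput, 110, 109 and 160 in corpus and 76.7, 80.7 and 94.4 in cauda. It was highest in corpus, 1.82-fold above caput (adjusted p = 0.000163) and 1.51-fold above cauda (adjusted p = 0.00323).

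Igf1, the growth hormone dependent ligand, was at 21.3, 18.7 and 16.6 CPM in caput, 28.5, 74.7 and 26.7 in corpus and 51.6, 32.4 and 34.6 in cauda. All corpus and cauda libraries lay above caput, and corpus replicate 2 was the highest of the 9. With all libraries Igf1 was 2.41-fold higher in corpus than in caput (log2 1.27, SE 0.37, adjusted p = 0.00968), and the change from corpus to cauda was -0.19 (adjusted p = 0.675). Without corpus replicate 2 these log2 changes were 0.55 (adjusted p = 0.0455) and 0.54 (adjusted p = 0.044), so the second turned in direction. Its cauda against caput call (log2 1.08, adjusted p = 0.024) ended without caput replicate 2 or 3 or cauda replicate 1 (0.0653, 0.0833 and 0.0882). Igf2, the imprinted growth ligand, had 7.01 ± 3.12, 12.3 ± 6.24 and 19.2 ± 1.81 CPM and was 2.74-fold higher in cauda than in caput (adjusted p = 0.00483). Because 62.9% of its windows also occur in other genes, most often in the overlapping annotation Gm49394, its count is uncertain.

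**Figure D4:**
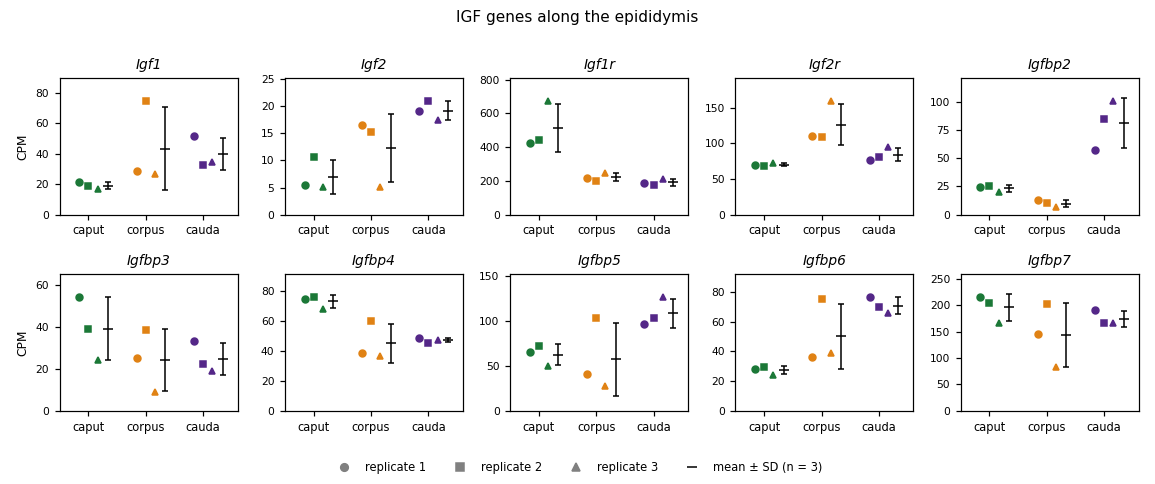
CPM of 10 IGF members (y axis, linear from 0, own scale per panel) in the 3 segments, with 1 symbol per library and the mean ± SD of 3. Igf1r is highest in caput and Igfbp2 in cauda, and the square for corpus replicate 2 is the highest corpus value of Igf1, Igfbp3, Igfbp4, Igfbp5, Igfbp6 and Igfbp7.

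Of the 7 IGF binding protein genes 6 were tested and 4 passed the F test (66.7%, close to the 69% of all tested genes). Igfbp2, the binding protein that prefers IGF2 (chr1:72824503-72852474, plus strand), was at 25, 25.3 and 20.1 CPM in caput, 12.7, 10.1 and 6.78 in corpus and 57.6, 84.5 and 101 in cauda. The 3 segments did not overlap, and the rise from corpus to cauda was 8.55-fold (log2 3.10, SE 0.23, adjusted p = 2.4e-07), the widest of the 53 tested members in that step. Igfbp6, also selective for IGF2, was at 28, 29.3 and 24.3 CPM in caput, 36.3, 75.2 and 38.8 in corpus and 76.5, 70 and 65.5 in cauda. It was 1.91-fold higher in corpus and 2.61-fold higher in cauda than in caput (adjusted p = 0.00464 and 0.000216), and the corpus to cauda step (log2 0.45, adjusted p = 0.104) became 0.91 (adjusted p = 3.19e-05) without corpus replicate 2. Igfbp4, an inhibitor of IGF action released by the protease PAPPA, was highest in caput, at 73 ± 4.33 against 45.2 ± 13.1 and 47.2 ± 1.47 CPM (adjusted p = 0.00249 and 0.00348 for corpus and cauda against caput). Its change from corpus to cauda (log2 0.04, adjusted p = 0.872) was 0.34 without corpus replicate 2 (adjusted p = 0.0183). Igfbp3, the main carrier in blood, had 39.2 ± 15, 24.3 ± 14.6 and 24.9 ± 7.65 CPM and did not pass (F test, adjusted p = 0.253). Its change from caput to corpus (log2 -0.66, adjusted p = 0.186) was -1.32 without corpus replicate 2 (adjusted p = 0.0137).

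Igfbp5, a matrix-bound binding protein, shows how far corpus replicate 2 reaches. It was at 65.5, 73 and 49.6 CPM in caput, 41.2, 104 and 27.9 in corpus and 96.7, 103 and 127 in cauda, with an F test at adjusted p = 0.0496 and no contrast past the threshold (adjusted p = 0.896, 0.0542 and 0.0624). Without corpus replicate 2 all 3 contrasts passed, with log2 changes of -0.90 from caput to corpus (adjusted p = 0.00177), 1.72 from corpus to cauda (1.01e-05) and 0.82 from caput to cauda (0.000477). Beside these values, the summed fibroblast markers (11 of 11 tested) ranged over 738 to 910 CPM in caput, 438 to 1180 in corpus and 1126 to 1353 in cauda. Of the 11, 7 were higher in cauda than in caput (63.6%, against 27.5% of all tested genes), while Pdgfra was lower. The 11 smooth muscle markers summed to 2198 to 2394 CPM in caput, 320 to 1032 in corpus and 3467 to 6295 in cauda. Of these, 10 of 11 were higher in cauda than in corpus (90.9%, against 18.8% of all tested genes). No marker of either list was at 0 in all libraries, and the part of stromal content in the members' values, including the cauda rises of Bmp2, Fgf7, Tgfb2, Tgfb3, Tgfbr3, Igfbp2, Igfbp5 and Igfbp6, was not tested. The 9 epithelial markers summed to 2095 to 2157 CPM in caput, 3116 to 3250 in corpus and 2153 to 2197 in cauda. Sums of 9 macrophage markers were 290 to 307 CPM in caput, 157 to 217 in corpus and 194 to 268 in cauda. Of these, 5 of 9 were lower in corpus than in caput (55.6%, against 28.2% of all tested genes). Sums of 13 germ cell and sperm markers were 178 to 208, 495 to 542 and 704 to 1051 CPM in the same order. Of these, 13 of 13 were higher in cauda than in caput (100%, against 27.5% of all tested genes). The part of these cells in the members' values was not tested.

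**Figure D5:**
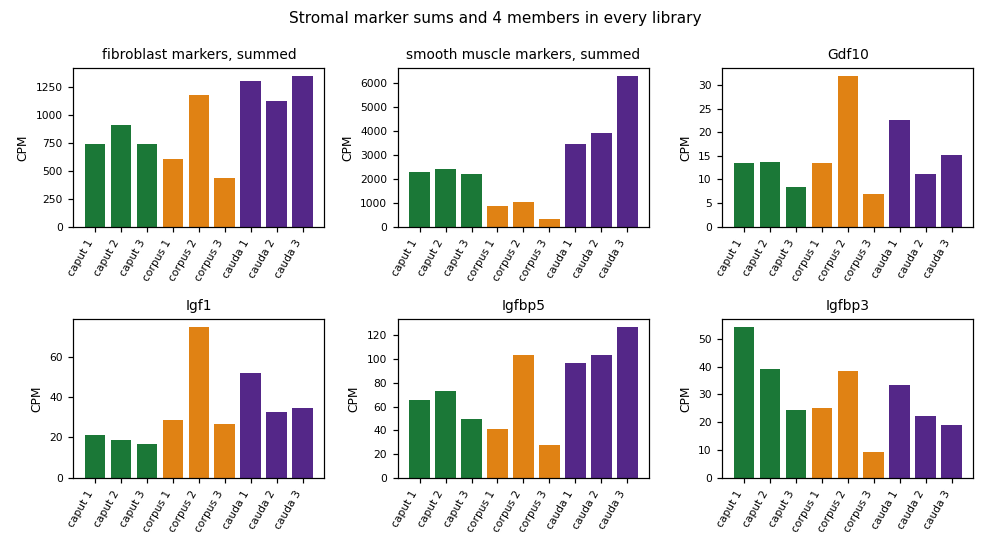
Bars give the CPM of every library, from 0, for the sum of 11 fibroblast markers, the sum of 11 smooth muscle markers, Gdf10, Igf1, Igfbp5 and Igfbp3. Within the corpus, replicate 2 is the highest bar in all 6 panels, and the smooth muscle sum is highest in the 3 cauda libraries.

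The IGF2 mRNA binding proteins regulate transcripts rather than the ligand. Igf2bp2 was at 6.77 ± 0.578, 10.9 ± 4.48 and 13 ± 1.64 CPM and was 1.92-fold higher in cauda than in caput (adjusted p = 0.00964). Its corpus against caput call (log2 0.72, adjusted p = 0.0419) ended without any 1 of the caput libraries, without cauda replicate 2 and with DESeq2, and without corpus replicate 3 the log2 change was 0.32 (adjusted p = 0.275). Igf2bp3 did not pass (F test, adjusted p = 0.423), and Igf2bp1 had 2 counts in all.

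The symbol rule also took in 5 genes that match by name but are not ligands, receptors or binding proteins of these families. Bmp1, a protease that matures procollagen, had 42.4 ± 6.76, 22.4 ± 9.26 and 27.2 ± 2.77 CPM and was 1.85-fold lower in corpus than in caput (adjusted p = 0.00507). Its log2 change from corpus to cauda was 0.24 (adjusted p = 0.439), and 0.71 without corpus replicate 2 (adjusted p = 0.00724). Its cauda against caput call (log2 -0.65, adjusted p = 0.0257) was lost without caput replicate 2 or 3 or cauda replicate 2 or 3 (0.112, 0.057, 0.0594 and 0.0713). Bmp2k, an endocytic kinase, fell 2.4-fold from corpus (50.2 ± 0.933 CPM) to cauda (20.8 ± 1.88, adjusted p = 2.85e-06). Of its windows, 24.7% are shared with other genes, most often Paqr3. Fgfr1op, a centrosomal protein, rose 1.41-fold from corpus to cauda (27.8 ± 2.01 to 38.9 ± 4.67 CPM, adjusted p = 0.00342). Fgfr1op2 was highest in caput at 170 ± 9.69 CPM against 124 ± 7.97 and 129 ± 0.775 (adjusted p = 0.000177 and 0.000523). Igf2os had 8 counts.

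The 32 untested members reached at most 2.99 mean CPM in any segment, the value of Gdf11 in corpus. Fgf20, Fgf4, Fgf6, Gdf1 and Inhbc had no count. All of the 36-base windows of Gdf1 (100%) also occur in other genes, most often Cers1, so its lack of counts is uncertain. Several ligands with few reads had all or most of them in a single segment. Fgf15, the mouse counterpart of human FGF19 and an intestinal hormone that acts on FGFR4, had 10, 13 and 17 counts in the cauda libraries and 0 in the other 6. With 3 counts over a segment as the floor it was at least 7.86-fold higher in cauda than in caput and at least 11.4-fold higher than in corpus. Of its windows, 22.9% are shared with other genes, most often the antisense gene Gm26793. Fgf21, a fasting hormone of liver, had 2, 6 and 9 counts in caput and 0 elsewhere, at least 8.21-fold above corpus and at least 9.61-fold above cauda. Fgf23, a phosphate hormone of bone, had 4, 10 and 5 counts in cauda, 2 in corpus and 0 in caput, a ratio over corpus of 8.12 with a 95% counting interval of 1.96 to 71.9. Fgf8, an organising signal of the embryo, had 2, 6 and 4 counts in corpus, 1 in cauda and 0 in caput. Gdf11 had 1, 36 and 16 counts in the corpus libraries and at most 3 in any other. Gdf2 (BMP9) had 13 counts in corpus and 3 in cauda. Gdf5, with 39.6% of its windows shared with other genes, most often Gm15557, had 14 of its 15 counts in cauda. Gdf7 had 10 of its 11 counts in cauda, and Igfbp1 had 12 of its 13 in caput. These floors and intervals cover counting error only. The other untested members had 1 to 35 counts over all 9 libraries.

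Of the other genes of these pathways, 101 of 122 listed were tested and 77 passed the F test (76.2%, against 69% of all tested genes). By list, 18 of 26 FGF, 20 of 28 IGF and 39 of 47 TGF-beta, activin and BMP genes passed. In the FGF list 3 genes were higher and 12 lower in corpus than in caput (11.5% and 46.2%, against 29.5% and 28.2% of all tested genes). From corpus to cauda 5 were higher and 4 lower (19.2% and 15.4%, against 18.8% and 20.4%), and from caput to cauda 1 was higher and 12 lower (3.85% and 46.2%, against 27.5% and 27.2%). Of its 18 genes past the F test, 14 had their highest mean in caput and 4 in corpus (53.8% and 15.4% of the 26, against 27.4% and 23.1%). Among the ERK-induced transcription factors, Etv5 was at 477, 480 and 534 CPM in caput, 15, 14.3 and 13.6 in corpus and 30.1, 22.8 and 25 in cauda. Etv5 fell by 5.13 on the log2 scale from caput to corpus (adjusted p = 4.8e-13), and no segments overlapped. Etv4 and Etv1 fell by 6.37 and 3.26, from 106 ± 26.1 to 1.35 ± 0.475 CPM and from 44.1 ± 6.82 to 4.74 ± 0.835 CPM. Dusp6 and Spry1, ERK feedback inhibitors, were at 202 ± 8.82 and 104 ± 4.85 CPM in caput against 45.2 ± 4 and 29.2 ± 1.19 in corpus, while Spry2, another of them, did not pass (F test, adjusted p = 0.115). These 3 were picked after their values were seen. Among the others were Flrt3, a transmembrane partner of FGF receptors (4.2 ± 0.483, 48.9 ± 7.99 and 38.6 ± 4.02 CPM), and Ext1, a heparan sulphate polymerase that was highest in corpus (64.9 ± 3.14 CPM). Spred2, an ERK inhibitor, fell from corpus to cauda (49 ± 5.26 to 34.9 ± 4.18 CPM, adjusted p = 0.012).

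In the TGF-beta, activin and BMP list 12 genes were higher and 17 lower in corpus than in caput (25.5% and 36.2%, against the same 29.5% and 28.2% of all tested genes). From corpus to cauda 17 were higher and 5 lower (36.2% and 10.6%, against 18.8% and 20.4%), and from caput to cauda 19 were higher and 17 lower (40.4% and 36.2%, against 27.5% and 27.2%). Skil, a SMAD-induced repressor of SMAD signalling, was at 228, 206 and 254 CPM in caput, 12.4, 12.6 and 13 in corpus and 27.8, 25.8 and 31.6 in cauda. Pmepa1, another feedback inhibitor of TGF-beta signalling, was at 125 ± 7.36, 9.83 ± 0.856 and 11.8 ± 0.471 CPM. Both fell from caput to corpus, by 4.18 and 3.64 on the log2 scale (adjusted p = 4.1e-12 and 4.8e-12). The BMP target genes Id1 and Id3, inhibitors of helix-loop-helix factors, were highest in cauda. Id1 was at 8.1, 4.68 and 6.6 CPM in caput, 7.12, 15.5 and 8.29 in corpus and 104, 110 and 96.1 in cauda, a log2 change of 3.23 from corpus (adjusted p = 3.1e-08). Id3 was at 6.52 ± 2.46, 17.3 ± 12.7 and 160 ± 12.1 CPM. Secreted antagonists went in different directions: Chrd (chordin) was highest in corpus (5.3 ± 2.47, 72.7 ± 8.39 and 8.68 ± 1.74 CPM). Chrdl2, a chordin relative, and Fst (follistatin), which binds activin, were highest in cauda (106 ± 12.4 and 18.2 ± 4.3 CPM, against 6.13 ± 0.745 and 0.825 ± 0.261 in caput). Ltbp1, which anchors latent TGF-beta in the matrix, was highest in corpus (10.4 ± 1.46, 177 ± 3.58 and 60.3 ± 10.6 CPM). Thbs1, an activator of latent TGF-beta, was highest in cauda (50.8 ± 15 CPM, against 5.43 ± 2.89 in corpus).

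In the IGF list 11 genes were higher and 7 lower in corpus than in caput (39.3% and 25%, against 29.5% and 28.2% of all tested genes). From corpus to cauda 6 were higher and 3 lower (21.4% and 10.7%, against 18.8% and 20.4%), and from caput to cauda 12 were higher and 5 lower (42.9% and 17.9%, against 27.5% and 27.2%). Mmp7, a matrix protease able to cleave IGF binding proteins, was at 45.6, 44.6 and 42.7 CPM in caput, 4.87, 5.12 and 5.08 in corpus and 207, 199 and 257 in cauda. Its order of segments was that of Igfbp2, with a log2 change of 5.44 from corpus to cauda (adjusted p = 2.5e-11). Stc1 and Stc2, stanniocalcins that inhibit the PAPPA proteases, went apart. Stc1 was at 17.9 ± 2.78, 109 ± 9.34 and 207 ± 5.76 CPM, while Stc2 was at 11.7 ± 5.34, 2.12 ± 0.745 and 2.28 ± 0.436 CPM. Cyr61, a matricellular protein with an IGF binding protein-like domain, was at 24.5 ± 8.45, 141 ± 49.9 and 246 ± 75.6 CPM. From corpus to cauda Ghr, the growth hormone receptor, rose from 8.78 ± 2.2 to 30.2 ± 4.37 CPM and the protease gene Pappa2 from 3.28 ± 2.07 to 7.13 ± 2.25 CPM. Htra1, a serine protease, fell from 74.1 ± 7.56 to 32.7 ± 4.61 CPM.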

How the data were processed

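The protocols in the labels describe Trizol RNA from frozen tissue, a KAPA stranded mRNA kit and single-end reads of 36 bases (Illumina GAIIx). CASAVA 1.8.2, FastQC 0.11.2, Bowtie2 2.2.0 and build mm10 are named by the submitters' processing notes. For the counting tool, gene models, strand setting and multiply matching reads, no setting is given in the sources used. Per the file headers, the deposited values are raw counts per gene, used for all tests, and RPKM, used only to compare levels between genes.

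With edgeR 4.0.16 in R 4.3.3, filterByExpr left 14168 genes tested and 9891 not. After TMM scaling, a mean for each segment was fitted to the 9 libraries together and tested by quasi-likelihood (3 two-sided contrasts and their F test). Adjustment was by Benjamini-Hochberg at 0.05, and SEs follow from the F statistics. The biological coefficient of variation was 10.1%. The code was tested on simulated data. Alternatives were DESeq2 1.42.0, 2 other scalings, no low-count filter, a replicate block and leaving out each library.

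Named with values are members past the F test with at least 2 CPM in a segment and the member of each role with the highest mean RPKM. Of the other pathway genes they are the 4 widest called changes per list and contrast with at least 5 CPM. Members not past the F test were added for their role after their values were seen. Members and lists were chosen with earlier results of these data known. Coordinates and shared 36-base windows come from GENCODE M21 (mm10), which matched all 85 symbols, and promoters from RefSeq (GRCm38.p6).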

Additional observations from a re-analysis of the deposited data

How the results depend on the processing

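The 53 tested members gave 159 changes over 3 contrasts, of which 81 were called, and 73 of the 81 stayed called in all of the 14 alternatives that could be fitted. The other 8, for Tgfb1, Tgfb3 (2 contrasts), Bmp4, Bmpr1b, Igf1, Igf2bp2 and Bmp1, are given with their values above. With no low-count filter 11 of 80 members were higher in corpus than in caput in place of 7 (13.8%, against 22.6% of 19744 genes). The added ones were Fgf5, Fgf8, Gdf11 and Gdf2. In that fit 21 were lower in corpus than in caput (26.2%, against 20.8%). From corpus to cauda 20 were higher and 9 lower (25% and 11.2%, against 14.1% and 14.6%). From caput to cauda these were 21 and 20 (26.2% and 25%, against 21.5% and 19.9%). Fewer than 0.1 separated the log2 medians of all genes between scalings. Without corpus replicate 3, 9 members were higher in corpus than in caput (17%, against 28.2% of genes), with Bmp2, Gdf10 and Igf2 gained and Igf2bp2 lost. Leaving out 1 library at a time, the members higher in cauda than in corpus numbered 14 to 24 (26.4% to 45.3%, against 16.3% to 18.8% of genes). The 24 came without corpus replicate 2 (10 gained, Igf1 and Igfbp4 to Igfbp7 among them, and none lost). The log2 change of Igf1 from corpus to cauda (-0.19) ranged from -0.48 to 0.54 over the same fits, turning in direction without corpus replicate 2, and the cause was not tested. The labels do not say what the replicate numbers mark, and same-numbered libraries of different segments had deviations correlated at -0.045 to 0.239, and differently numbered ones at -0.227 to 0.174. All 3 pairs of replicate 3 lay at 0.168 to 0.239. Every same-numbered pair was positive except corpus with cauda replicate 2 (-0.045). Most differently numbered pairs were negative, which adds nothing of its own. Because deviations are taken from the segment means, positive same-numbered pairs require negative values among the rest. These values do not settle whether the numbers pair libraries. The main fit assumed no pairing because the labels name none. A replicate block gave 7 higher and 21 lower members from caput to corpus (13.2% and 39.6%, against 30.1% and 29.5% of all tested genes). From corpus to cauda it gave 19 and 6 (35.8% and 11.3%, against 20.3% and 21.7%). From caput to cauda it gave 19 and 19 (35.8% each, against 28.2% and 28.9%). Under it 40 members passed the F test, for which no share of all genes was counted. Calls over all genes went from 8173 to 8446, from 5552 to 5946 and from 7745 to 8089 in these contrasts. At this depth 1 count was worth 0.155 to 0.375 CPM.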
